A study of Mus musculus with 18 samples.

Results

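The suppressor of cytokine signalling (SOCS) family was followed through macrophages of Ldha knockout and wild-type mice. The cells were left untreated or exposed to interferon gamma (IFN-gamma) or interleukin 4 (IL-4). The family was taken as the 8 genes Socs1 to Socs7 and Cish, chosen by symbol among the 21380 gene identifiers measured, and all 8 passed the filter on low values described below.

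Macrophages had been grown out of femoral bone marrow of Ldha knockout (KO) mice and of wild-type (WT) mice over 7 days of culture, with serum at 15% and macrophage colony-stimulating factor at 30 ng/mL. The 6 groups were KO with IFN-gamma, WT with IFN-gamma, KO with IL-4, WT with IL-4, KO untreated and WT untreated, and each treatment lasted 24 h. Each group held 3 libraries, and the animal codes in the labels tie the libraries of a genotype with the same number to a single mouse, so 6 animals gave 18 libraries. IFN-gamma drives the classically activated (M1) state and IL-4 the alternatively activated (M2) state. The title calls the loss of lactate dehydrogenase macrophage-specific. The sources used here name neither the promoter behind the deletion nor the age, sex or strain of the mice.

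Cytokine receptors without a kinase of their own signal through Janus kinases (JAKs), which phosphorylate the receptor and then the STAT transcription factors. STATs switch on SOCS genes, and SOCS proteins bind receptors or JAKs through an SH2 domain and recruit a ubiquitin ligase through a SOCS box, which closes a negative feedback loop. Socs1 and Socs3 also carry a short region that blocks JAK activity directly. In macrophages Socs1 is known as the brake on IFN-gamma signalling and Socs3 as the brake on signalling through the gp130 receptor chain (Il6st), while Cish and Socs2 are classical targets of STAT5.

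Levels are given as normalized counts, that is, read counts that the authors divided by a size factor for each library. They compare libraries for a given gene, and genes are compared with each other only after division by exon length. Changes are differences of log2(normalized count + 1), so changes of genes with few counts are understated. Tests are limma's moderated two-sided tests, fitted over all 14288 genes that passed the filter and adjusted by Benjamini and Hochberg, and a gene was called at an adjusted p under 0.05. The standard error (SE) of a change, or its 95% interval, is given with it, and folds are ratios of group means.

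Libraries held 9.77 to 49.54 M recovered reads, with a median of 30.9 M, and the smallest was WT with IL-4 replicate 2. Ldha itself ran from 2128 to 10124 normalized counts in the 9 KO libraries and from 10712 to 38896 in the 9 WT libraries, and it was lower in KO libraries in each treatment. KO libraries also had 173 to 873 normalized counts of Lyz2, the gene of lysozyme in myeloid cells, against 200017 to 700319 in WT libraries, so that every KO against WT value below compares cells that differ in both genes, and the effects of the 2 cannot be told apart. All 12 macrophage markers examined were detected in every library, with summed levels of 212100 to 326700. Pairs of libraries of a group differed by a chi-square per gene of 4.72 to 67.1. Within WT with IFN-gamma, replicates 2 and 3 formed the closest pair of all (4.72), and replicate 1 lay at 60.8 and 67.1 from them. The WT libraries with IL-4 lay at 46.5 to 66.2 from each other. Among KO pairs the largest value was 59.3, between replicates 1 and 3 with IL-4. The value also depends on read depth, which differed between libraries.

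Sequences at the start sites are shown for the inducible members that RefSeq promoter windows cover (GRCm38.p6, 250 bases before to 50 after the start), because STATs bind TTC and GAA with 3 bases (TTCNNNGAA) or 4 bases between them, and interferon regulatory factors bind repeats of GAAA with 2 bases between them. Windows were found for 4 of 8 members, Socs1, Socs3, Socs4 and Cish. Capitals mark matches to these motifs, which were searched on both strands. The Socs1 line is chr16:10785537-10785786 on the minus strand, the Socs3 line chr11:117969367-117969616 on the minus strand, and the Cish line chr9:107296654-107296683 on the plus strand, limited to 30 bases around its matches, most of them after the start.
Socs1: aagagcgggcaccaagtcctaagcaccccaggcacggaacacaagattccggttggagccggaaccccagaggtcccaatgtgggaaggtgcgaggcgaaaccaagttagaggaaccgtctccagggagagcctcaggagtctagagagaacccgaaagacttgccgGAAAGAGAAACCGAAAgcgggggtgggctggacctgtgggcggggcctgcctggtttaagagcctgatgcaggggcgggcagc
Socs3: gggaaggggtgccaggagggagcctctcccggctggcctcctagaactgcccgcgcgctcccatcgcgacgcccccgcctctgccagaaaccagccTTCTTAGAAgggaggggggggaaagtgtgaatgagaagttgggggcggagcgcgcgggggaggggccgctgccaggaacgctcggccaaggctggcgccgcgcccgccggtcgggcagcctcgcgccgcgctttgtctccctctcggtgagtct
Cish: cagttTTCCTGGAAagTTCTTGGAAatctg

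The Socs1 window held 2 overlapping matches to the GAAA repeat, at positions -83 and -77 from the start, and none to either TTC motif. At least 1 match to the GAAA repeat occurred in 3.44% of all 32851 windows of 300 bases and at least 2 in 0.225%. This motif was added after the promoter sequences had been seen. The Socs3 window held 1 match to TTCNNNGAA, at position -154, as did 8.3% of all windows. Cish held 2, at positions 1 and 12, and at least 2 occurred in 0.457% of windows. The form with 4 bases between TTC and GAA, present in 6.95% of windows, was found in none of the 4, and the Socs4 window held no match to any of the motifs. Positions count from the start of the RefSeq window, which for Cish and Socs3 lies inside the gene span given below and not at its edge. A match is a description of these letters and not evidence of binding.

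**Figure D1:**
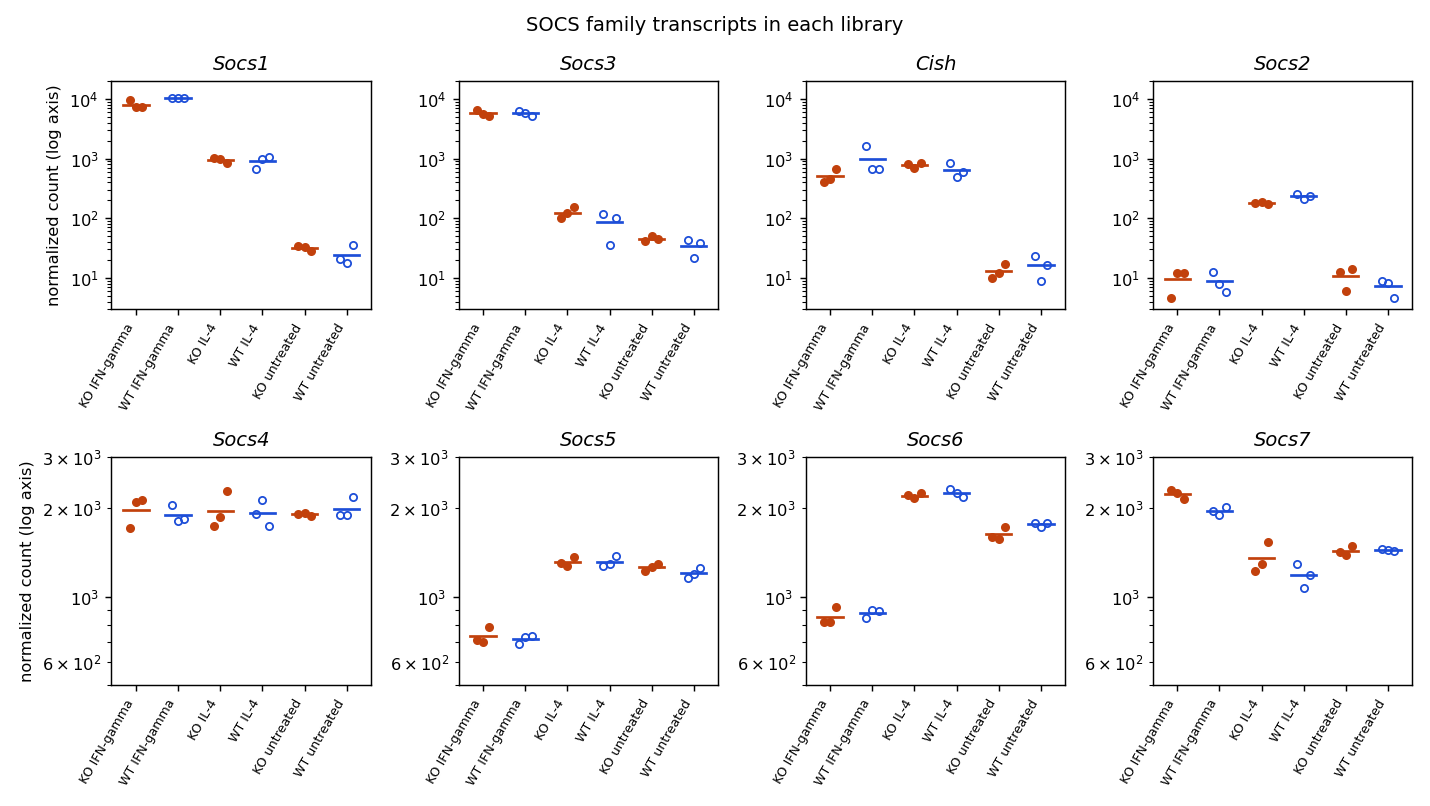
Normalized counts (log axis) of the 8 SOCS genes in each library, with filled points for KO libraries, open points for WT libraries and a bar at each group mean. Socs1, Socs3 and Cish lie far higher with IFN-gamma than untreated and Socs2 is high with IL-4 only, whereas Socs4 to Socs7 (lower row, with an axis of smaller range) stay between 688 and 2325.

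Socs1, whose product binds the IFN-gamma receptor complex and JAKs, moved furthest of the family with IFN-gamma. It had 9455, 7256 and 7419 normalized counts in the KO libraries with IFN-gamma, against 34.4, 32.9 and 27.8 in untreated KO libraries. WT libraries with IFN-gamma had 10420.1, 10404 and 10415, against 20.5, 18.04 and 34.9 in untreated WT libraries. The treated libraries lay far above the untreated ones in every animal. The rise was 254-fold in KO cells, or 7.94 (SE 0.196) on the log2 scale, with an adjusted p of 1.46e-15 in limma. It was 426-fold in WT cells, or 8.73, with the same SE and an adjusted p of 7.63e-16. The gene lies at chr16:10782240-10785536 on the minus strand of GRCm38. In such bulk libraries, fewer cells of a type and less RNA per cell cannot be told apart.

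IL-4 also raised Socs1, to a lower level. KO libraries with IL-4 had 1023, 1004 and 841 normalized counts, and WT libraries with IL-4 had 679, 967 and 1068, all above every untreated library. The log2 rise with IL-4 was 4.87 in KO cells (SE 0.196, limma adjusted p = 1.3e-11) and 5.18 in WT cells (adjusted p = 8.02e-12). IFN-gamma libraries exceeded IL-4 libraries of the same genotype by 3.07 in KO cells and 3.55 in WT cells, with no overlap.

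Socs3, which acts on gp130 and related receptors, had the largest rise after Socs1 with IFN-gamma and a far smaller one with IL-4. With IFN-gamma it had 6453, 5677 and 5212 normalized counts in KO libraries, against 41.6, 51.1 and 44.1 in untreated KO libraries. In WT libraries with IFN-gamma it had 6273, 5773 and 5263, against 42.9, 21.7 and 38.2 in untreated WT libraries. The IFN-gamma libraries of KO and WT cells covered almost the same range, far above all others. The log2 rise was 6.95 in KO cells (127-fold, SE 0.321, limma adjusted p = 4.75e-12) and 7.41 in WT cells (169-fold, adjusted p = 1.7e-12). The gene lies at chr11:117966079-117970047 on the minus strand.

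With IL-4, Socs3 had 99.8, 120.1 and 152 normalized counts in KO libraries, above all 3 untreated KO libraries. The log2 rise was 1.41 in KO cells (SE 0.321, limma adjusted p = 0.00262). WT libraries with IL-4 had 119, 36.1 and 99.4, and the value of replicate 2 fell within the untreated WT range. That rise of 1.17 passed in WT cells (limma adjusted p = 0.0098) but was lost when the test used only the 6 WT libraries compared (adjusted p = 0.128). Leaving out untreated WT replicate 2 also ended the call (0.88, adjusted p = 0.0661). So did leaving out replicate 1 of WT with IL-4 (0.85, adjusted p = 0.0517) or its replicate 3 (0.98, adjusted p = 0.0509). Replicate 2 of WT with IL-4 rests on 11 reads.

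Cish, whose product binds activated cytokine receptors of the STAT5 class, rose to like levels with either cytokine. With IFN-gamma it had 401, 459 and 671 normalized counts in KO libraries, against 9.96, 12.1 and 17.2 untreated. WT libraries with IFN-gamma had 1655, 681 and 657, against 23.4, 9.02 and 16.5 untreated. WT replicate 1 stood far above both other WT libraries with IFN-gamma. With IL-4, KO libraries had 810.3, 685 and 834 normalized counts and WT libraries 843, 492 and 602. The treated libraries exceeded the untreated ones of their genotype without overlap for both cytokines.

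The log2 rise of Cish with IFN-gamma was 5.18 in KO cells (SE 0.348, limma adjusted p = 7.03e-10) and 5.80 in WT cells (adjusted p = 1.23e-10). With IL-4 it was 5.81 in KO cells (adjusted p = 1.31e-09) and 5.28 in WT cells (adjusted p = 5.47e-09). Cish lies at chr9:107296026-107302784 on the plus strand. On the opposite strand, 479 of its exon bases are shared with the antisense gene Gm17041, which is not listed in the table used here, and 261 with the pseudogene Gm17040, which had at most 6 reads per group. The kit keeps the strand, but the sources used here do not say how strand was handled in counting, and whether reads of these genes add to Cish was not tested.

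Socs2, a STAT5 target known for restraining growth hormone signalling, rose with IL-4 and did not pass the test with IFN-gamma. With IL-4 it had 181, 188.0 and 174 normalized counts in KO libraries, against 12.7, 6.06 and 13.9 untreated. WT libraries with IL-4 had 252, 209.8 and 234, against 8.77, 8.12 and 4.61 untreated. The groups were far apart in both genotypes. The log2 rise was 4.01 in KO cells (16.7-fold, SE 0.371, limma adjusted p = 2.56e-07) and 4.87 in WT cells (32.4-fold, adjusted p = 2.94e-08). With IFN-gamma the values were 4.58, 12.1 and 12.2 in KO libraries and 12.8, 7.89 and 5.90 in WT libraries, within or near the untreated range. The change was -0.19 (95% interval -0.97 to 0.59) in KO cells and 0.25 (-0.53 to 1.03) in WT cells. These values rest on 25 to 38 reads per group, which limits how small a change could be seen.

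Socs4, Socs5, Socs6 and Socs7, the larger and evolutionarily older members, were plentiful without any stimulus. Socs5 and Socs6 fell with IFN-gamma. Socs5, whose product has been tied to restraint of IL-4 and growth factor receptors, had 698 to 790 normalized counts in KO libraries with IFN-gamma, against 1223 to 1288 untreated. WT libraries had 688 to 731 with IFN-gamma, against 1153 to 1253 untreated. It fell by 0.78 on the log2 scale in KO cells (SE 0.0685, limma adjusted p = 2.52e-08) and by 0.74 in WT cells (adjusted p = 3.69e-08). With IL-4 it changed by 0.06 (95% interval -0.08 to 0.21) in KO cells and by 0.13 (-0.02 to 0.27) in WT cells, and neither passed.

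Socs6, which binds receptor tyrosine kinases such as Kit, moved in opposite directions with the 2 cytokines. It had 817 to 917 normalized counts in KO libraries with IFN-gamma and 2163 to 2248 with IL-4, against 1573 to 1722 untreated. WT libraries had 843 to 896 with IFN-gamma and 2188 to 2325 with IL-4, against 1727 to 1785 untreated. The 3 treatments did not overlap in either genotype. The fall with IFN-gamma was -0.94 in KO cells (SE 0.0636, limma adjusted p = 8.19e-10) and -1.01 in WT cells (adjusted p = 2.43e-10). The rise with IL-4 was 0.44 (adjusted p = 3.94e-05) in KO cells and 0.36 (adjusted p = 0.000343) in WT cells.

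Socs7, which shuttles between nucleus and cytoplasm and binds signalling adaptors, rose moderately with IFN-gamma. It had 2151 to 2316 normalized counts in KO libraries with IFN-gamma, against 1391 to 1484 untreated, and 1898 to 2027 in WT libraries with IFN-gamma, against 1434 to 1448 untreated. The log2 rise was 0.65 in KO cells (SE 0.0827, limma adjusted p = 2.9e-06) and 0.44 in WT cells (adjusted p = 0.00016). With IL-4 it had 1224 to 1537 in KO libraries, overlapping the untreated ones, and 1066 to 1290 in WT libraries, all below the untreated ones. The change with IL-4 was -0.09 in KO cells (adjusted p = 0.456) and -0.29 in WT cells (adjusted p = 0.0119), which was lost without WT IL-4 replicate 2 (-0.22, adjusted p = 0.0614).

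Socs4, tied to the epidermal growth factor receptor, kept the same level in all groups within the spread of its libraries, which was 1712 to 2289 over the 9 KO libraries and 1747 to 2189 over the 9 WT libraries. Its 4 responses lay between -0.07 and 0.05, with 95% intervals from -0.30 at the lowest to 0.27 at the highest, and none passed. Its promoter window held no match to the motifs searched, each of which occurred in at most 8.3% of all windows. Whether this bears on its steady level was not tested.

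Over the family, 4 of 8 members (Socs1, Socs3, Cish and Socs7) rose and 2 (Socs5 and Socs6) fell with IFN-gamma in KO cells, and the same 4 and 2 did so in WT cells. Of all genes tested, 28.3% rose and 27.5% fell with IFN-gamma in KO cells, and 31.4% rose and 31.1% fell in WT cells. The median change of the 8 members was 0.35 in each genotype, against -0.01 over all genes. With IL-4, 5 members (Socs1, Socs2, Socs3, Socs6 and Cish) rose and none fell in KO cells, where 15.8% of all genes rose and 14.5% fell. The same 5 rose and Socs7 fell in WT cells, where 16.3% of all genes rose and 14% fell. The median change with IL-4 was 0.92 in KO cells and 0.76 in WT cells, against 0 and -0.01 over all genes. The 2 responses of a genotype share its untreated libraries.

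**Figure D2:**
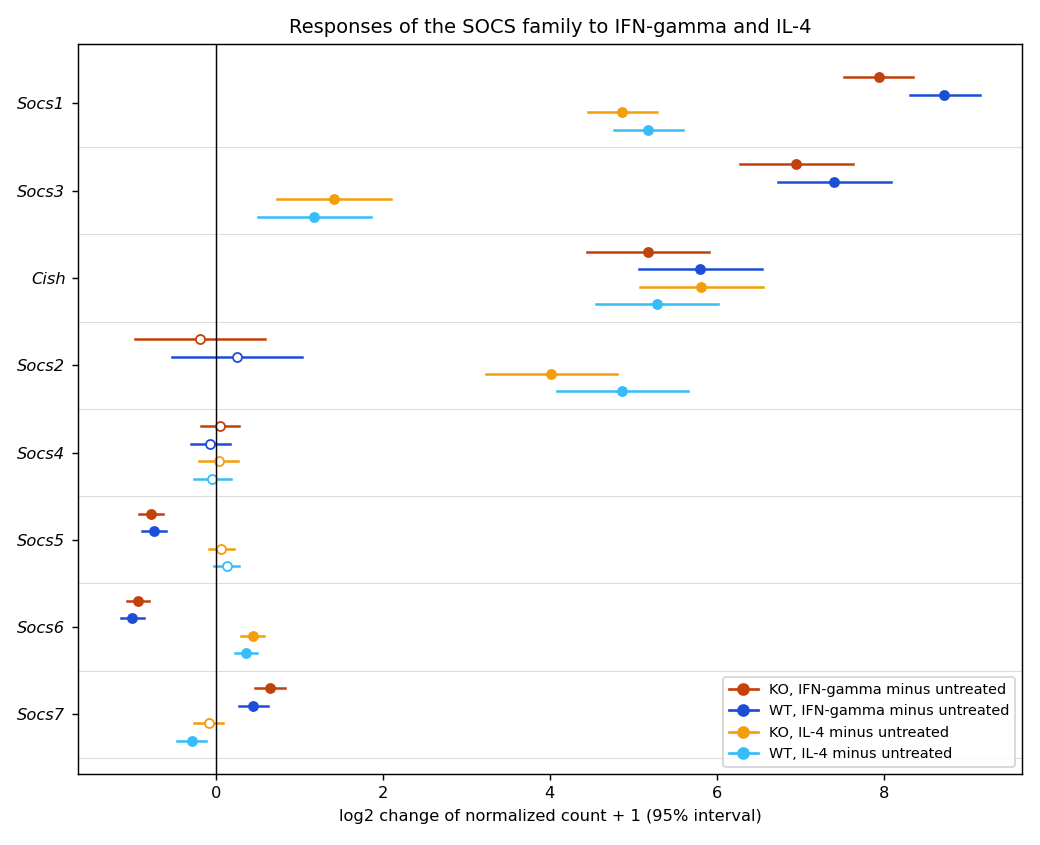
Log2 change of the normalized count + 1 of each SOCS gene with IFN-gamma or IL-4 minus untreated, in KO and WT cells, with points for the limma estimate and bars for its 95% interval. Filled points passed at an adjusted p under 0.05, and the IFN-gamma estimates for Socs1 lie at 7.94 (KO) and 8.73 (WT), the farthest right of the family.

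Set directly against each other, the 2 cytokines separated the family. IFN-gamma libraries exceeded IL-4 libraries in Socs1, Socs3 and Socs7 and lay below them in Socs2, Socs5 and Socs6, in KO cells and in WT cells. Among all genes, 27.5% were higher and 27.4% lower with IFN-gamma than with IL-4 in KO cells, and 30.8% higher and 29.7% lower in WT cells. The log2 difference for Socs3 was 5.55 in KO cells (SE 0.321, limma adjusted p = 1.06e-10) and 6.23 in WT cells (adjusted p = 1.93e-11). For Socs2 it was -4.20 in KO cells (SE 0.371, adjusted p = 2.85e-08) and -4.62 in WT cells (adjusted p = 6.7e-09). Socs3 and Socs2 were thus the members that differed most between the cytokines, in opposite directions.

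Cish was the member whose order of the 2 cytokines differed between genotypes. In KO cells it was lower with IFN-gamma than with IL-4 in all 3 animals, by 1.01, 0.58 and 0.31 on the log2 scale. In WT cells it was higher with IFN-gamma in all 3 animals, by 0.97, 0.47 and 0.13. The mean difference of -0.63 in KO cells did not pass in limma (95% interval -1.37 to 0.10, adjusted p = 0.133) but passed with the animal as a block (adjusted p = 0.00799). The mean difference of 0.52 in WT cells did not pass either (95% interval -0.21 to 1.25, adjusted p = 0.206) and passed with the animal as a block (adjusted p = 0.0221). Without WT IFN-gamma replicate 1 that WT difference was 0.09 (adjusted p = 0.834). The difference between the genotypes was -1.16 (SE 0.492, 95% interval -2.19 to -0.12), with an adjusted p of 0.179 in limma and of 0.0118 with the animal as a block. That test was added after the Cish values had been seen. Without the same library the difference between genotypes was -0.72 (adjusted p = 0.385). Of all genes, 5.75% were called in this comparison.

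**Figure D3:**
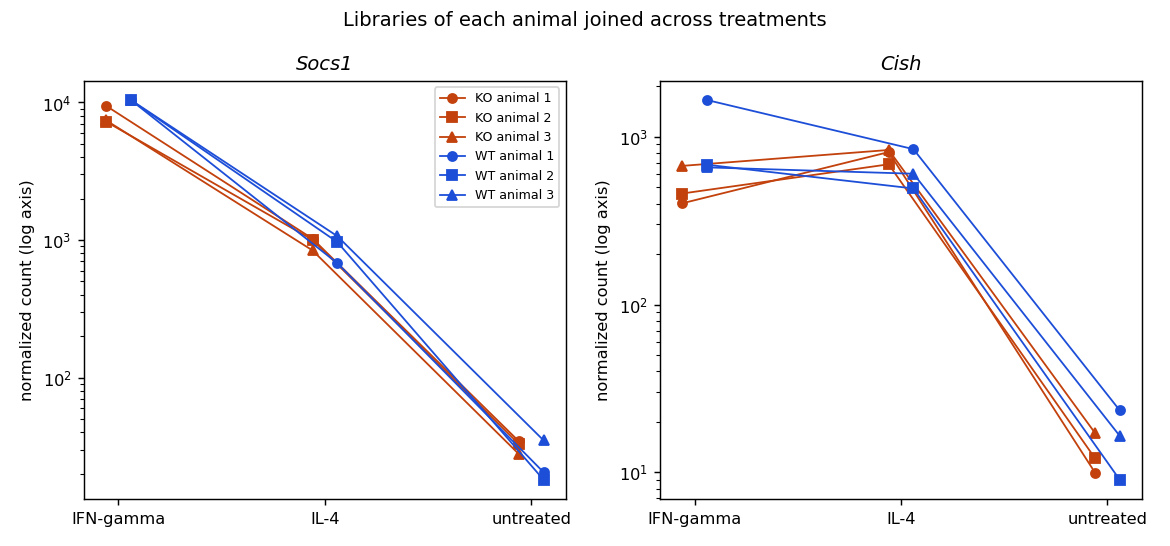
Normalized counts (log axis) of Socs1 and Cish with IFN-gamma, with IL-4 and untreated, with lines joining the 3 libraries of each animal (orange-red for KO, blue for WT). For Cish the IFN-gamma point lies below the IL-4 point in each KO animal and above it in each WT animal, with WT animal 1 at 1655.

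Divided by the length of the merged exons, levels can be set side by side between members, as far as those lengths hold. Exons of all annotated transcripts were merged, so a length can exceed that of the RNA present, by a different factor for each gene. For Cish the merged exons hold 6419 bases, nearly all of its span given above. The order and the shares below depend on these lengths, and other lengths were not tried. Untreated cells of both genotypes had the order Socs4, Socs7, Socs5, Socs6, then far lower Socs3, Socs1, Cish and Socs2. Socs4 had 278 ± 3.4 normalized counts per kilobase in untreated KO cells and 290 ± 24.4 in untreated WT cells (SD, n = 3 each). Socs7 had 197 ± 6.53 and Socs5 196 ± 5.06 per kilobase in untreated KO cells, which did not differ beyond their spread. Socs6 had 144 ± 7.03 there. Socs3 followed at 15.8 ± 1.7, Socs1 at 10.9 ± 1.2, Cish at 2.04 ± 0.574 and Socs2 at 1.14 ± 0.441 per kilobase in untreated KO cells. The constitutive members thus made up nearly the whole of the family before stimulation, with Socs4 alone at 32.9% in KO cells and 33.9% in WT cells.

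With IFN-gamma, Socs1 and Socs3 took over the family. Socs1 had 2760 ± 421 normalized counts per kilobase in KO cells and 3580 ± 2.8 in WT cells (SD, n = 3 each), and Socs3 had 2000 ± 217 in KO cells and 2000 ± 175 in WT cells. Socs1 made up 48.9% of the family sum in KO cells (46.8 to 51.6%) and 55.4% in WT cells (53.0 to 57.3%). Socs3 made up 35.5% in KO cells (34.2 to 36.9%) and 30.8% in WT cells (29.2 to 32.1%). These ranges of library shares did not overlap between genotypes for Socs1 or for Socs3, and the shares were not tested. Behind them came Socs7 at 309 ± 11.6 and Socs4 at 288 ± 33.9 per kilobase in KO cells, and Socs4 at 276 ± 19.3 and Socs7 at 270 ± 8.89 in WT cells, pairs that overlapped. Cish had 79.5 ± 22.1 in KO and 155 ± 88.7 in WT cells, where Socs5 had 114 ± 7.77 in KO and 112 ± 3.71 in WT cells and Socs6 had 75.1 ± 4.99 in KO and 77.2 ± 2.56 in WT cells. Socs2 came last at 1.01 ± 0.459 in KO and 0.93 ± 0.37 in WT cells. The family sum per kilobase was 5630 ± 577 in KO cells and 6470 ± 265 in WT cells with IFN-gamma, against 844 ± 13.2 and 854 ± 35.9 in untreated KO and WT cells.

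With IL-4 the family sum stayed nearer to the untreated one, at 1380 ± 55.2 per kilobase in KO cells and 1310 ± 27.3 in WT cells (SD, n = 3 each). Socs1 was the largest share there too, 23.9% in KO cells and 23.6% in WT cells, followed by Socs4 at 20.6% in KO cells and 21.5% in WT cells. These neighbours in the order overlapped in their libraries. Cish made up 8.75% in KO cells and 7.68% in WT cells, and Socs2 1.38% in KO cells and 1.86% in WT cells. Measured per merged exon length, the large fold change of Socs2 thus remained a small part of the family sum.

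**Figure D4:**
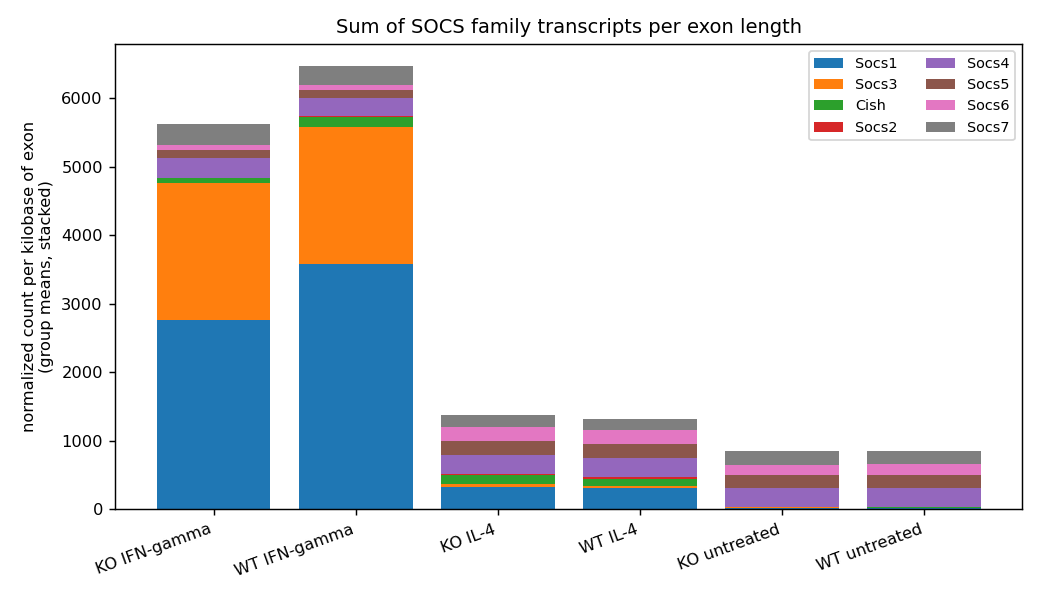
Group means of normalized counts per kilobase of exon for the 8 SOCS genes, stacked, in each of the 6 groups. Bars reach 5630 in KO and 6470 in WT cells with IFN-gamma, where Socs1 and Socs3 fill most of them, 1380 in KO and 1310 in WT cells with IL-4, and 844 in KO and 854 in WT cells left untreated.

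KO and WT cells were then compared within each treatment, to ask whether any SOCS gene differed between genotypes. No member passed in any treatment. With IFN-gamma 27.9% of all genes were called, with IL-4 6.59% and untreated 1.98%. At an unadjusted p under 0.05, Cish and Socs7 differed with IFN-gamma (p-values of 0.0241 and 0.031), Socs3 and Socs7 with IL-4 (0.0466 and 0.0326) and none untreated. On the means of each animal over the 3 treatments none of the 8 passed either, with changes of -0.27 to 0.38, where 11.3% of all genes were called. Marker sums also differed between genotypes in some treatments. Summed levels of the 8 stromal and fibroblast markers in the table (of 10 listed) were 235 to 878 in KO and 151 to 280 in WT libraries with IFN-gamma, and 430 to 1560 in KO and 182 to 487 in WT libraries left untreated, with overlap in each. The macrophage marker sum was 244900 to 262500 in KO and 312700 to 326700 in WT libraries with IFN-gamma, and 212100 to 242800 in KO and 278300 to 289100 in WT libraries with IL-4. Dendritic cell markers, of which 5 of 7 are in the table, summed to 109.7 to 142 in KO and 22.95 to 58.98 in WT libraries with IL-4. Lymphocyte markers, of which 4 of 10 are in the table, summed to 37.3 to 55.4 in KO and 108 to 138 in WT libraries with IL-4, and to 103 to 168 in KO and 190.0 to 333 in WT libraries left untreated. These macrophage, dendritic cell and lymphocyte sums did not overlap between genotypes. Untreated libraries did overlap in the macrophage sum, at 266500 to 299900 in KO and 281800 to 295700 in WT libraries. The dendritic cell sums overlapped in untreated libraries and were lower in KO libraries with IFN-gamma, as given below. Lymphocyte sums overlapped with IFN-gamma and stromal sums with IL-4. The lymphocyte sum was mostly Cd4, with 2135 reads over the 18 libraries, where no other lymphocyte marker had more than 126. Of the dendritic cell markers, only Ccr7 was called between genotypes with IL-4 (2.53, limma adjusted p = 0.00925). Neutrophil markers, of which 4 of 9 are in the table, summed to 58.9 to 94.8 in KO and 15.3 to 29.5 in WT libraries with IFN-gamma. The neutrophil sums overlapped between genotypes with IL-4 and in untreated libraries. S100a9, Ly6g, Elane and Mpo, like Cd3e of lymphocytes, are not listed in the table used here. The part of these markers in the values below was not tested.

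Socs1 with IFN-gamma was lower in all 3 KO libraries than in any WT library, at 8043 ± 1225 against 10410 ± 8.15 normalized counts (SD, n = 3 each). The ratio of means was 0.772 and the log2 difference -0.38 (SE 0.196, 95% interval -0.80 to 0.03, limma adjusted p = 0.161). It passed when the spread came from the 6 IFN-gamma libraries alone (adjusted p = 0.0411). The 3 WT values rest on 10610, 9229 and 8832 reads and lie closer together than the error of read counting alone. Their SD therefore does not measure the spread between animals, and that pass leans on it. In untreated cells the KO libraries averaged 31.7 ± 3.48 and the WT libraries 24.5 ± 9.12 (SD, n = 3 each), a difference of 0.41 (0 to 0.83) with overlap. With IL-4 the difference was 0.10 (-0.31 to 0.51).

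The rise of Socs1 with IFN-gamma differed between KO and WT cells by -0.79 on the log2 scale (SE 0.278, 95% interval -1.38 to -0.21). That value joins the genotype difference with IFN-gamma (-0.38) and the one in untreated cells (0.41), neither of them called. The untreated part rests on 110 reads in KO and 94 in WT libraries. This interaction did not pass in limma (adjusted p = 0.0861) and passed with the animal as a block (adjusted p = 0.022). The rises were 8.06, 7.74 and 8.01 in the 3 KO animals and 8.92, 9.09 and 8.18 in the 3 WT animals, without overlap. Without WT untreated replicate 3, the library with the highest untreated WT value, the difference was -1.07 (adjusted p = 0.00901), and over all alternatives it ran from -1.07 to -0.61. In the interaction for IFN-gamma 9.15% of all genes were called, 1307 without the block and 2073 with it. No member passed in the interaction for IL-4, where the 1 gene called of 14288 was the gene model Gm6192 (2.31, adjusted p = 0.000176), that is, 0.007%. At an unadjusted p under 0.05 there were 774 genes, and DESeq2 called 21.

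Cish with IFN-gamma averaged 510.2 ± 142 normalized counts in KO libraries and 997 ± 569 in WT libraries (SD, n = 3 each), with overlap. The difference of -0.86 (SE 0.348, 95% interval -1.59 to -0.13) did not pass in limma (adjusted p = 0.0751). It passed on recovered reads in edgeR (-0.96, adjusted p = 0.0197) and in DESeq2 (-0.96, adjusted p = 0.0412), and without WT IFN-gamma replicate 3 (-1.09, adjusted p = 0.046). Without WT IFN-gamma replicate 1, the library with 1655 normalized counts, it was -0.42 (adjusted p = 0.383). The size of the difference thus rested on that library.

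The other members gave no called difference between genotypes. Socs3 with IFN-gamma averaged 5781 ± 627 in KO and 5769 ± 505 in WT libraries (SD, n = 3 each), a difference of 0.00 with a 95% interval of -0.68 to 0.68. With IL-4 the difference for Socs3 was 0.69 (0.01 to 1.37, limma adjusted p = 0.22), with overlap, and it was 0.17 (adjusted p = 0.705) without WT IL-4 replicate 2. Socs7 with IFN-gamma was higher in all 3 KO libraries than in any WT library, with a difference of 0.19 (0.02 to 0.37, adjusted p = 0.0906). Socs2 with IL-4 was lower in all 3 KO libraries than in any WT library, with a difference of -0.35 (-1.14 to 0.43, adjusted p = 0.623). Untreated Socs6 was separated in the same direction, with a difference of -0.11 (-0.25 to 0.02, adjusted p = 0.55). The share of all genes separated between genotypes in this way is not given here. These separations, and that of Socs1 with IFN-gamma, are therefore descriptions only. For Socs4, Socs5 and Socs6 the differences between genotypes lay between -0.11 and 0.07 in the 3 treatments, and their intervals reached no further than -0.29 and 0.28.

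**Figure D5:**
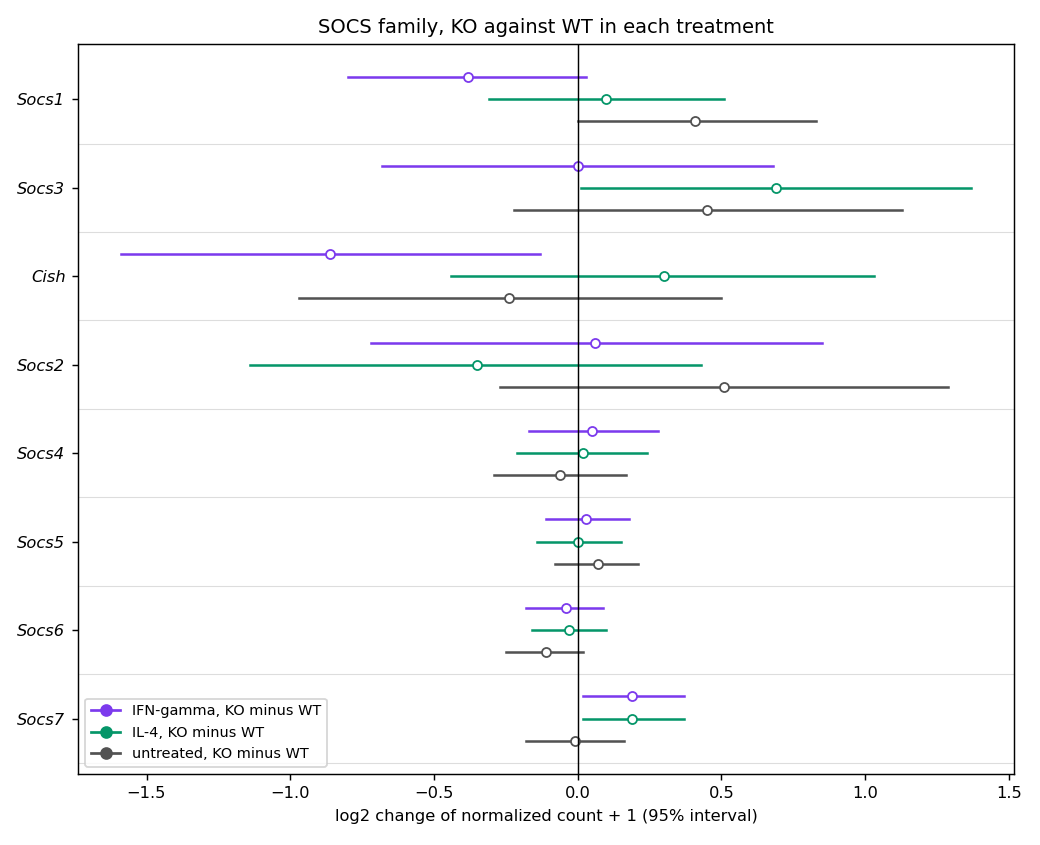
Log2 difference between KO and WT cells (KO minus WT) of each SOCS gene with IFN-gamma, with IL-4 and untreated, with points for the limma estimate and bars for its 95% interval. All points are open because none passed at an adjusted p under 0.05, and Cish with IFN-gamma lies at -0.86 and Socs1 with IFN-gamma at -0.38.

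The partners of the SOCS proteins were followed in lists of receptors, kinases, STATs, other inhibitors and SOCS-box ligase components. Their counts stand against shares of all genes of 28.3% higher and 27.5% lower with IFN-gamma in KO cells and 31.4% higher and 31.1% lower in WT cells, and with IL-4 of 15.8% higher and 14.5% lower in KO cells and 16.3% higher and 14% lower in WT cells. All 4 JAK kinases rose with IFN-gamma in KO and in WT cells. Jak2, which serves the IFN-gamma receptor, rose by 2.23 in KO cells (SE 0.111, limma adjusted p = 1.25e-11) and by 2.14 in WT cells (adjusted p = 1.83e-11). Tyk2 rose by 1.19 in KO and 1.34 in WT cells, Jak3 by 1.55 in KO and 1.58 in WT cells, and Jak1 by 0.37 in KO and 0.19 in WT cells. With IL-4 only Jak2 of the 4 was called, with a rise of 1.5 in KO cells (adjusted p = 1.7e-08) and 1.27 in WT cells (adjusted p = 1.43e-07). The median change of the 4 kinases with IFN-gamma was 1.37 in KO cells and 1.46 in WT cells, against -0.01 over all genes.

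STAT factors moved with IFN-gamma as well. Stat2, which carries type I interferon signals, rose by 2.75 in KO cells (SE 0.172, limma adjusted p = 2.72e-10) and by 2.48 in WT cells (adjusted p = 8.42e-10). Stat3, the transducer behind Socs3, rose by 1.74 in KO and 1.99 in WT cells. Stat5b rose by 0.26 in KO and 0.56 in WT cells and Stat6, the transducer of IL-4, by 0.15 in KO and 0.17 in WT cells. Stat5a fell by 0.41 in KO and by 0.65 in WT cells. Stat4 changed by -0.38 in KO cells (adjusted p = 0.365) and rose by 2.13 in WT cells, and that difference passed as an interaction (-2.51, SE 0.482, adjusted p = 0.00342). With IL-4, Stat2 rose by 0.68 in KO and 0.98 in WT cells, Stat5a rose by 0.46 in KO and 0.49 in WT cells, and Stat4 fell by 1.43 in KO cells and changed by 0.08 in WT cells (adjusted p = 0.892). That difference for Stat4 did not pass as an interaction (-1.51, SE 0.482, adjusted p = 0.626).

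Among the 21 tested of 22 listed receptors, 14 rose and 3 fell with IFN-gamma in KO cells, and 13 rose and 4 fell in WT cells. Il15ra rose by 4.15 in KO and 4.02 in WT cells, and Il4ra, the IL-4 receptor chain, by 2.20 in KO and 2.69 in WT cells. With IL-4, 10 receptors rose and 3 fell in KO cells, and 12 rose and 3 fell in WT cells, among them Csf2rb, the common beta chain that signals through STAT5, with a rise of 1.96 in KO and 1.91 in WT cells. Ifngr1, the ligand-binding chain of the IFN-gamma receptor, fell with IFN-gamma by 1.18 in KO cells and by 0.48 in WT cells. With IFN-gamma its level was lower in KO than in WT cells by 0.87 (difference -0.87, SE 0.0846, limma adjusted p = 1.29e-06), and its response differed between genotypes by -0.70 (SE 0.12, adjusted p = 0.00134). Ifngr1 was also lower in KO than in WT cells with IL-4 (difference -0.61, SE 0.0846, limma adjusted p = 0.000304).

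Other inhibitors of signalling, some of which act mainly outside the JAK and STAT pathway, were counted in the same way. Of 17, 8 rose and 1 fell with IFN-gamma in KO cells, and 11 rose and 3 fell in WT cells. Usp18, which restrains type I interferon receptors, rose by 4.13 in KO cells (SE 0.139, limma adjusted p = 8.78e-14) and by 4.53 in WT cells (adjusted p = 2.15e-14). Ptpn2, a phosphatase of JAKs and STATs, rose by 1.44 in KO and 1.97 in WT cells, and Ptpn6 (SHP-1) by 1.02 in KO and 1.47 in WT cells. With IL-4, 6 rose and 8 fell in KO cells, and 6 rose and 7 fell in WT cells, so this list had no common direction there. Bcl6, a repressor that competes with STATs for DNA, was lower in KO than in WT cells with IFN-gamma (difference -0.77, SE 0.056, adjusted p = 5.69e-08). KO cells with IFN-gamma differed from WT cells in 7 of these 17 inhibitors, 2 higher and 5 lower, where 27.9% of all genes were called.

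Of the 8 components and partners of SOCS-box ubiquitin ligases, 2 rose and 1 fell with IFN-gamma in KO cells, and 5 rose and 1 fell in WT cells. Cul2, a cullin scaffold, rose by 1.15 in KO cells (SE 0.0873, limma adjusted p = 3.86e-09) and by 1.55 in WT cells (adjusted p = 5.37e-11), and Ube2f, a NEDD8-conjugating enzyme, by 0.62 in KO and 0.89 in WT cells. Cul5, the cullin most often paired with SOCS boxes, fell by 0.26 in KO cells and by 0.46 in WT cells. With IL-4 only Elob, an adaptor that binds the SOCS box, was called, with a rise of 0.43 in KO and 0.40 in WT cells.

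Genes of secreted cytokines and growth factors were measured as well. The list also holds Igf1 and Csf1, whose receptors are tyrosine kinases themselves. Of 18 genes listed, 12 were tested, and 9 rose and 2 fell with IFN-gamma in KO cells, and 8 rose and 2 fell in WT cells. Il15 rose by 2.39 in KO and 2.81 in WT cells and Il27, whose product signals through gp130, by 3.33 in KO and 4.16 in WT cells. Igf1 fell by 4.03 in KO and by 4.34 in WT cells. With IL-4, 4 rose and 3 fell in KO cells, and 3 rose and 1 fell in WT cells. The shares of all genes given above for the other lists stand beside these counts too. Csf1 had the lowest adjusted p with IL-4, with a rise of 3.62 in KO and 3.21 in WT cells. Il6 rose by 3.64 in KO and 2.83 in WT cells. The markers of each treatment were in place, since all 12 IFN-gamma markers rose with IFN-gamma in both genotypes, and 11 of 12 IL-4 markers rose with IL-4 in KO cells and 12 of 12 in WT cells. Some IFN-gamma markers also rose with IL-4, and others did not pass or fell. Nos2 rose with IL-4 by 5.46 in KO and 3.28 in WT cells, and Gbp2 by 2.66 in KO and 2.04 in WT cells. Summed levels of the 5 dendritic cell markers in the table (of 7 listed) were 1064 to 1351 in KO and 1520 to 2555 in WT libraries with IFN-gamma, against 26.1 to 42.4 and 18.4 to 26.2 in untreated KO and WT libraries, and their part in the responses was not tested.

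For each member, the genes with the most similar pattern were found by Pearson's r of log2(normalized count + 1) over the 18 libraries, among 9669 genes with a mean of at least 100. The libraries fall into 6 groups and share animals, so that r mostly reflects the group means, and it is given as a description. Socs1 was most like Cst7 and Ripk2 (both r = 0.987) and Jak2 (0.983), which were all intermediate with IL-4. Socs3 was most like Gbp6 (0.995), Smarca4 (0.994) and H2-Oa (0.994), and Socs2 most like Etfdh (0.977), Inpp5a (0.976) and the IL-4 marker Retnla (0.975). The nearest genes to Cish were Fam20b (0.98), Nfil3 (0.978) and Mapkapk3 (0.976). Mapkapk3 averaged 2985 normalized counts in KO and 3215 in WT cells with IFN-gamma, 3182 in KO and 3315 in WT cells with IL-4, and 2005 in KO and 1930.0 in WT cells left untreated.

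The members that fell with IFN-gamma were most like genes whose mean levels were also lower with it than in untreated cells, in both genotypes. Socs5 was nearest to Igf1 (0.991), Man2a2 (0.99) and Pon3 (0.988), and Socs6 to Mrc1 (0.991), the mannose receptor and an IL-4 marker, Arhgap6 (0.991) and Cbr2 (0.989). Socs7 was nearest to Msi2 (0.978), Crkl (0.975) and Ppfibp2 (0.973). Socs4, which kept its level, had no close match, with Tnpo1 (0.773), Phf3 (0.72) and Ccdc47 (0.698) as its nearest genes.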

How the data were processed

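Poly(A) RNA was sequenced with a directional kit, per the labels' protocols. STAR 2.5 aligned the reads to GRCm38 and HTSeq 0.6 counted them, per the submitters' processing notes, which also name DESeq2 and edgeR without versions. The deposited table gives each library's signal as normalized counts, with 1 size factor per library applied by the authors. It has 21428 rows, of which 48 repeated an identifier and were dropped. Values in a column were whole multiples of a common step (100% of them at a tolerance of 0.1), so reads could be recovered. These gave the depths and were tested with edgeR 4.0.16 and DESeq2 1.42.0 as alternatives. The authors' own fold changes were not used.

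limma 3.58.1 (trend) in R 4.3.3 was fitted to log2(normalized count + 1) with 6 group means and 12 residual degrees of freedom, for genes at 10 or more in at least 3 libraries. The code was tested on simulated data. KO against WT over all treatments used 6 animal means. Replicates are separate animals. Exon lengths and overlaps came from GENCODE M21 and promoters from RefSeq. Genes named were the members, the JAKs, the STATs except for an item not reported here, and, from each other list, at most the 4 called genes of lowest adjusted p in a comparison. The members and lists were chosen with earlier results of these data known.

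Within a genotype, libraries with the same number come from 1 animal, per the labels. After group means were removed, their 18 pairs correlated across genes at 0.004 to 0.243, with 13 above 0.1, and the animal entered as a block in an alternative. Alternatives also covered the pseudocount, the filter, TMM factors, the groups compared alone and each library left out.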

Additional observations from a re-analysis of the deposited data

Results flagged for a closer look

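Cish was marked for a closer look because all 3 KO animals were lower with IFN-gamma than with IL-4 and all 3 WT animals were higher. The difference between the genotypes in this contrast was -1.16 on the log2 scale (SE 0.492), with an adjusted p of 0.179 in limma and of 0.0118 with the animal as a block, in a test added after the values had been seen. It ran from -1.39 to -0.72 over the alternatives, and the value nearest 0 came from leaving out WT IFN-gamma replicate 1, without which the WT difference was 0.09 (adjusted p = 0.834).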

How the results depend on the processing

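Of the results for single members, all calls with IFN-gamma against untreated, 6 in each genotype, kept their direction and their side of the threshold under a pseudocount of 0.5 or 5, no filter, TMM factors, edgeR, DESeq2, the groups compared alone, the replicate block and each library left out. Other calls lost or gained are given with the results above, apart from Cish in KO cells with IFN-gamma against IL-4, which passed with the groups compared alone (adjusted p = 0.0147). With the animal as the replicate block, Socs1 in the IFN-gamma interaction and Cish in 3 contrasts of the 2 cytokines gained a call, and no other response or interaction of a member changed its call. Between KO and WT a number joins different animals (r of -0.212 to 0.104, 1 of 9 pairs above 0.1). With that number as a block, Cish with IFN-gamma passed (adjusted p = 0.0486) and no other member's call changed. TMM factors moved the median of all genes by less than 0.1 on the log2 scale.

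Counts of called genes over the whole table moved by more than 1.5 times as follows. KO against WT untreated gave 608 genes in DESeq2, 971 with the groups compared alone and 124 to 209 with a library left out, against 283. KO against WT with IL-4 gave 128 with the groups alone and 497 to 1009 with a library left out, against 941. The IFN-gamma interaction gave 2073 with the replicate block and 760 to 1251 with a library left out, against 1307. The IL-4 interaction gave 3 at a pseudocount of 5, 2 without the filter, 21 in DESeq2, 12 with the block and 1 to 3 with a library left out, against 1. IFN-gamma against IL-4 between genotypes gave 1254 in DESeq2, 289 with the groups alone, 1555 with the block and 486 to 1095 with a library left out, against 822. KO against WT over all treatments gave 1031 with the block, 748, 910 or 959 without KO animal 1, 2 or 3, and 985 or 743 without WT animal 2 or 3, against 1618. The causes of these shifts were not tested.

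Changes that turned sign were all uncalled and near 0. Under TMM factors Socs4 in KO with IFN-gamma against IL-4 was -0.03, Socs5 in KO against WT with IL-4 -0.01 (0 in DESeq2) and Socs5 in the IFN-gamma interaction 0, and Socs3 in the IL-4 interaction was 0 in edgeR. With a library left out, IFN-gamma responses ran from -0.53 to 0.22 (Socs2, KO), -0.02 to 0.48 (Socs2, WT) and -0.01 to 0.15 (Socs4, KO). IL-4 responses of Socs4 ran from -0.09 to 0.11 (KO) and -0.12 to 0.03 (WT), and IFN-gamma against IL-4 from -0.07 to 0.13 (KO) and -0.09 to 0.05 (WT). KO against WT untreated ran from -0.09 to 0.01 (Socs4), -0.04 to 0.01 (Socs7) and -0.58 to 0.06 (Cish). With IFN-gamma it ran from -0.16 to 0.48 (Socs2), -0.08 to 0.07 (Socs3) and -0.02 to 0.07 (Socs5), and with IL-4 from -0.09 to 0.23 (Socs1), -0.10 to 0.10 (Socs4) and -0.03 to 0.03 (Socs5). The IL-4 interaction ran from -0.29 to 0.56 (Socs3) and -0.04 to 0.16 (Socs4). Over all treatments, with an animal left out, the range was -0.05 to 0.18 (Socs1), -0.08 to 0.23 (Socs2), -0.05 to 0.06 (Socs4), 0 to 0.06 (Socs5) and -0.51 to 0.05 (Cish). Socs2 outside IL-4 rests on few reads, so its small changes were not detectable at this depth.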
